A study of Mus musculus with 6 samples.

Results

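The 9 annexin genes *Anxa2*, *Anxa3*, *Anxa4*, *Anxa5*, *Anxa6*, *Anxa7*, *Anxa10*, *Anxa11* and *Anxa13* were followed in the villus epithelium of the mouse duodenum, out of 20409 features with counts. The members were taken by gene symbol, and all 9 had enough counts to be tested. Bulk RNA-seq compared 3 wild-type (WT) with 3 double mutant (DM) mice. The DM mice were Smad4 fl/fl; Ctnnb exon3 fl/wt; Villin-CreERT2 animals given tamoxifen, so that the epithelium lost Smad4, the shared mediator of TGF-beta and BMP signals, and made a beta-catenin without exon 3 that escapes degradation, a gain of function. Villin-CreERT2 acts in the epithelium of the whole intestine, crypts included, and not in villi alone. Tamoxifen was injected once daily on 4 days at 0.05 g/kg, and villi were taken 7 days after induction. The WT mice were littermates that received no injection, so an effect of tamoxifen or of Cre activation cannot be told apart from that of the alleles. Each group held 1 male and 2 female mice, matched for age, with ages not given in the sources used here.

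Annexins are soluble proteins that bind acidic phospholipids when calcium rises, through a conserved core of repeated domains, and they differ mostly in the N-terminal tail in front of that core. They link membranes to the actin cortex, take part in vesicle traffic and gather at wounds in the plasma membrane. In the gut, several sit under the apical membrane of absorptive cells, and *Anxa13* is known as an annexin of the intestinal epithelium. In the mm9 annotation, the longest coding sequence of *Anxa6*, whose core is duplicated, has 673 codons. *Anxa7* and *Anxa11*, which carry long tails, have 485 and 503 codons, and the other 6 members have between 316 and 339.

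Total counts ran from 19678507 to 26337318 per library. *Smad4* fell in the DM mice from 119.8, 180.1 and 144.5 CPM (counts scaled to a common library size by edgeR's TMM factors) to 26.1, 36.8 and 32.1 CPM (log2 fold change -2.22, adjusted p = 0.000145, edgeR). For *Ctnnb1* the log2 fold change was -0.15 (adjusted p = 0.359, edgeR), and counts per gene do not show the loss of an exon. Enterocyte markers took 6.03% to 6.73% of counts in WT and 3.93% to 4.15% in DM mice, and 11 of the 14 were lower and 1 higher. Stem and progenitor markers took 0.00436% to 0.0137% and 0.0354% to 0.0481%, with 5 of 8 higher. Tuft markers took 0.0123% to 0.0177% and 0.00154% to 0.00169%, with 7 of 7 tested lower, and enteroendocrine markers 0.0210% to 0.0316% and 0.0109% to 0.0119%, with 6 of 8 tested lower and 1 higher. WT mouse 1 stood apart from the other libraries. Its goblet markers took 0.0129% of counts, against 1.43% to 1.46% in the other WT mice and 0.525% to 0.596% in DM mice, and its Paneth markers 0.000737%, against at least 0.0423% in the other 5 libraries. Its stem and progenitor markers took 0.00436%, against 0.0125% and 0.0137% in WT mice 2 and 3. Results of named annexins and S100 genes that turn on this mouse are given with and without it. In bulk RNA, fewer cells of a type and less RNA per cell cannot be told apart.

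The RefSeq promoter table (build GRCm38.p6) held 12 promoters of 9 annexins. The 250 bases before the start of transcription are shown for the members with the largest rise (*Anxa10*), the largest fall (*Anxa4*) and the smallest adjusted p among the risers after *Anxa10* (*Anxa7*), and for *Anxa2*, the most abundant member. They are written 5′ to 3′ on the strand of the gene. Capitals mark matches to 8 motifs searched on both strands, of which 3 occur here: the AP-1 motif TGANTCA, the TATA box TATAAA and the E-box CACGTG bound by MYC. *Anxa10* lies at chr8:62123194-62123443 on the minus strand, *Anxa2* at chr9:69453433-69453682 on the plus strand, *Anxa7* (its second start) at chr14:20479942-20480191 on the minus strand and *Anxa4* (its first start) at chr6:86793585-86793834 on the minus strand.
Anxa10: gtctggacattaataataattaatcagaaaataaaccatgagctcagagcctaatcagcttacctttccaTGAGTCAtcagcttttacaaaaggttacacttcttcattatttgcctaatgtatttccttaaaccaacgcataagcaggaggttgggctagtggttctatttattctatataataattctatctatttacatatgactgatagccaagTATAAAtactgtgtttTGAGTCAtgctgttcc
Anxa2: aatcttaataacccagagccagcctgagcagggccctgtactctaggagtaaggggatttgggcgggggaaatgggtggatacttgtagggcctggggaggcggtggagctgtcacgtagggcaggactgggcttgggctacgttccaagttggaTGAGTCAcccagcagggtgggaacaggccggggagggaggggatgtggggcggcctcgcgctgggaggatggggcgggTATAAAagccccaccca
Anxa7: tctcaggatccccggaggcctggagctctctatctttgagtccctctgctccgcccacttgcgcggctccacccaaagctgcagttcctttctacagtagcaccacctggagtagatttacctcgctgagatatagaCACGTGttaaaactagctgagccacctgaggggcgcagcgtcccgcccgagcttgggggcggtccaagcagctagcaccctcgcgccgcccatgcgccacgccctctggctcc
Anxa4: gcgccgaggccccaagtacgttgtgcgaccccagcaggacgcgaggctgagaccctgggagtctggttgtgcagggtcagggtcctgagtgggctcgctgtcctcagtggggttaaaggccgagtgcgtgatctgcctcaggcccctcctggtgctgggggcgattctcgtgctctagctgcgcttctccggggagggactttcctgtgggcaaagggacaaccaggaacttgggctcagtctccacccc

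The *Anxa10* window was AT-rich, with 33.6% GC against a median of 52.4% over the 32851 promoters of the same length, and held AP-1 matches beginning 180 and 16 bases before the start and a TATA box 32 bases before it. *Anxa2* was the other member with AP-1 and TATA matches, 95 and 17 bases before its start, in a window of 62.4% GC. An AP-1 match occurred in 6.75% of all promoters and a TATA box in 12.4%. The E-box of *Anxa7*, 113 bases before the second start, occurred in 6.02%, and the window of the first start of *Anxa7* held no match. Neither window of *Anxa4* and none of those of *Anxa5* and *Anxa11* held any of the 8 motifs. The other motifs searched were CTTTGAT for TCF/LEF (in 3.21% of promoters), GTCTAGAC for SMAD (0.167%), GGCGCC for BMP-responsive SMAD binding (9.59%), TTTATGG for CDX (2.43%) and CAAAGTCCA for HNF4 (0.384%), and no window of a member held them. *Anxa3*, *Anxa6* and *Anxa13* had no entry.

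In DM villi, 3 of the 9 annexins were higher (*Anxa10*, *Anxa7* and *Anxa5*), 1 was lower (*Anxa4*) and 5 did not pass the threshold (adjusted p under 0.05 over 13346 genes tested, edgeR's quasi-likelihood test). Over all genes tested, 36.8% passed, 19.7% as higher and 17.0% as lower, so that the share of annexins called was close to that of genes at large. The median log2 fold change of the 9 was 0.54, beside 0.0214 over all genes. In 5 of the 9 (*Anxa3*, *Anxa5*, *Anxa7* and *Anxa10* higher, *Anxa4* lower) WT and DM mice were fully apart, as was the case for 52.4% of all genes (28.1% higher and 24.2% lower). *Anxa10* was the one member past the log2 fold change of 2 that the study set in its methods, as were 5.3% of genes in either direction.

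**Figure D1:**
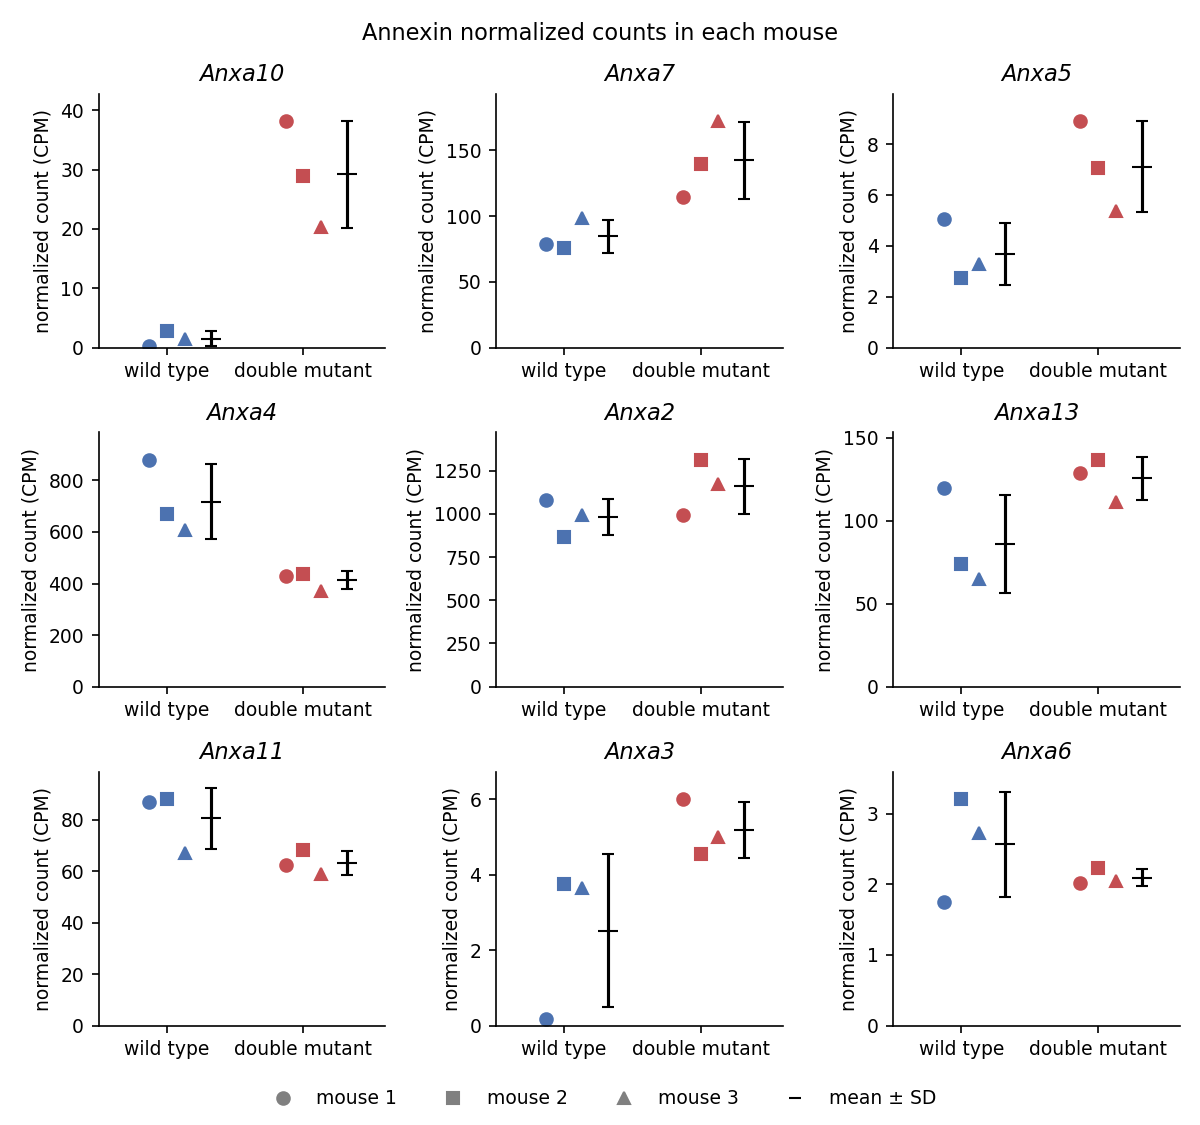
Normalized counts (CPM, linear axes from 0) of each annexin in the 3 wild-type and 3 double mutant mice; symbols stand for the mouse number within a group, and black bars for the mean ± SD. *Anxa10* lies between 20.3 and 38.2 CPM in double mutant mice and at or under 2.88 CPM in wild-type mice, *Anxa4* is lower in every double mutant mouse, and wild-type mouse 1 is far below its group in *Anxa3*.

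*Anxa10* is an annexin best known from the gastric mucosa, and its core has lost most of the calcium-binding sites of the family. The gene (ENSMUSG00000031635) spans 64535839 to 64601915 on the minus strand of mm9 chromosome 8. WT mice 1, 2 and 3 had 5, 53 and 30 reads on it, or 0.208, 2.88 and 1.52 CPM. DM mice 1, 2 and 3 had 814, 625 and 428 reads, or 38.2, 29.0 and 20.3 CPM. Every DM mouse was thus well above every WT mouse. The log2 fold change was 4.29 (standard error 0.753, adjusted p = 0.00771, edgeR), a 19.5-fold difference. Without WT mouse 1 it was 3.73 (adjusted p = 0.000233, edgeR), and without WT mouse 2, the highest of its group, 5.12 (adjusted p = 0.00891, edgeR), the ends of the range over the 6 mice left out. In WT mouse 1, goblet and Paneth markers were also near 0, and stem and progenitor markers were the lowest of all libraries. The part of these other cell types in the level of *Anxa10* was not tested.

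*Anxa7*, or synexin, was first described as a protein that aggregates secretory granules. It spans 21274483 to 21299355 on the minus strand of mm9 chromosome 14. The WT mice had 78.9, 76.1 and 98.9 CPM and the DM mice 114.6, 139.8 and 172.4 CPM. The lowest DM mouse lay above the highest WT mouse, and the log2 fold change was 0.75 (standard error 0.171, adjusted p = 0.00976, edgeR). *Anxa5*, whose protein binds phosphatidylserine and serves as a label of dying cells, lies on mm9 chromosome 3, 36347847 to 36374765, minus strand. It had 5.04, 2.72 and 3.29 CPM in WT and 8.92, 7.05 and 5.36 CPM in DM mice. The groups were separate by a narrow gap, from 5.04 to 5.36 CPM. Its log2 fold change was 0.94 (standard error 0.299, adjusted p = 0.0369, edgeR). That call was the least stable of the 4. Among the 6 refits with a mouse removed it held in 2, without WT mouse 1 (1.24, adjusted p = 0.00633, edgeR) or DM mouse 3 (1.11, adjusted p = 0.0400, edgeR), and was lost without WT mouse 2, WT mouse 3, DM mouse 1 or DM mouse 2 (0.76 to 0.95, adjusted p = 0.0880 to 0.123, edgeR).

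*Anxa4*, an annexin of secretory and absorptive epithelia found on the membranes of secretory granules and the basolateral surface, was the member that fell. It spans 86686834 to 86743578 on the minus strand of mm9 chromosome 6. The WT mice had 880.1, 668.1 and 605.8 CPM and the DM mice 429.3, 437.7 and 371.8 CPM. Every DM mouse was below every WT mouse, and WT mouse 1 was the highest. The log2 fold change was -0.80 (standard error 0.157, adjusted p = 0.00511, edgeR), or a level 0.575 times that of WT. Without WT mouse 1 it was -0.63 (adjusted p = 0.00392, edgeR). Enterocyte, tuft and enteroendocrine markers were lower in the same mice, and their part in the fall of *Anxa4* was not tested. Of its 50-base words, 24 of 2996 (0.801%) also occurred in transcripts of other protein-coding genes, and the words of the other 8 members did not.

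**Figure D2:**
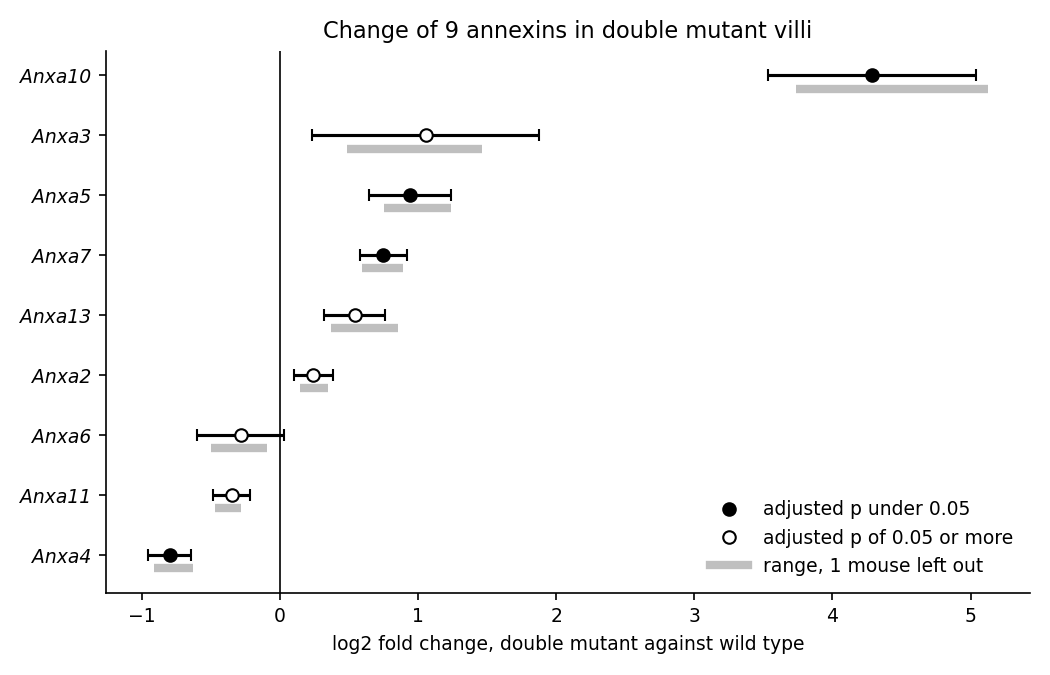
Log2 fold change of each annexin in double mutant against wild-type villi with its standard error (edgeR); filled points have an adjusted p under 0.05, and grey bars span the values of the 6 fits that left out 1 mouse. *Anxa10* at 4.29 lies far from the other 8, which range from -0.80 to 1.06.

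*Anxa2* forms a complex with S100a10 under the plasma membrane and was the most abundant member. It had 1080, 869.2 and 996.1 CPM in WT and 996.5, 1314 and 1172 CPM in DM mice. DM mouse 1 lay within the WT range. The log2 fold change was 0.24 (adjusted p = 0.216, edgeR). *Anxa2* shares 98 exonic bases (2.63% of its exons) with *Gm16144* on the opposite strand, which had 304 counts over the 6 libraries, and reads there cannot be assigned where counting ignored the strand.

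*Anxa13* had 120.0, 73.8 and 64.9 CPM in WT and 128.7, 136.7 and 111.1 CPM in DM mice. WT mouse 1 reached the DM range and the other WT mice did not. The log2 fold change was 0.54 (standard error 0.222, adjusted p = 0.0913, edgeR), and without WT mouse 1 it passed the threshold at 0.86 (adjusted p = 0.00125, edgeR). *Anxa11*, which binds the calcium sensor Pdcd6 and tethers RNA granules to lysosomes, had 86.7, 88.2 and 67.0 CPM in WT and 62.6, 68.3 and 59.1 CPM in DM mice. WT mouse 3 lay among the DM mice. Its log2 fold change was -0.35 (standard error 0.135, adjusted p = 0.0741, edgeR), and without WT mouse 3 it was -0.47 (adjusted p = 0.0312, edgeR).

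The remaining members were scarce. *Anxa3* had 4, 69 and 72 reads in WT mice, or 0.167, 3.75 and 3.64 CPM, and 6.01, 4.55 and 4.98 CPM in DM mice. All DM mice were above all WT mice, but WT mouse 1 was far below the other WT mice. The log2 fold change was 1.06 (standard error 0.821, adjusted p = 0.356, edgeR) and fell to 0.49 (adjusted p = 0.138, edgeR) without WT mouse 1. In that library goblet and Paneth markers were near 0, and stem and progenitor markers were the lowest. *Anxa6*, which binds the cell cortex and endosomes, had 1.75, 3.21 and 2.73 CPM in WT and 2.02, 2.23 and 2.04 CPM in DM mice. The DM mice all lay inside the WT range (log2 fold change -0.28, standard error 0.318, adjusted p = 0.516, edgeR).

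Outside the 9 members, the table held *Anxa1*, *Anxa8* and *Anxa9*. *Anxa1*, a glucocorticoid-induced annexin of resolving inflammation, had 0 reads in each WT mouse and 11, 8 and 13 reads in the DM mice. Counts this low did not pass the filter, and in a fit without the filter the adjusted p was 0.00441 (edgeR). Against a floor of 3 counts per WT library (up to 0.163 CPM), its mean of 0.501 CPM in DM mice was 3.07-fold higher. That ratio leaves out the counting error of the few DM reads. *Anxa8* had 0 reads in WT mice and 1, 0 and 2 reads in DM mice, at or under that floor. *Anxa9* had 19, 0 and 7 reads in WT and 18, 17 and 31 reads in DM mice (1.37 as log2 fold change, adjusted p = 0.225, edgeR), and without WT mouse 1 it was 2.47 (adjusted p = 0.0446, edgeR). *Anxa9* shares 71 exonic bases (3.42% of its exons) with *Fam63a* on the opposite strand, which had 4686 counts over the 6 libraries, so that the few reads of *Anxa9* cannot be told apart from those of *Fam63a* there where counting ignored the strand. Immune markers took 0.00829%, 0.0164% and 0.0155% of counts in WT mice 1, 2 and 3. They took 0.00851% to 0.0129% in DM mice, with 2 of 9 tested lower. Their share was above that of all DM mice in WT mice 2 and 3 but not in WT mouse 1. Stromal and endothelial markers took 0.000205% to 0.000369% and 0.000475% to 0.00113%, with none of 3 tested called, and *Col1a2*, *Col3a1*, *Pdgfra* and *Kdr* at 3 counts or fewer in every library. The part of these cells in the reads of *Anxa1* was not tested.

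Levels of different annexins were compared per length of merged exons, as reads per kilobase of exon, scaled like the CPM (RPKM). In WT villi the order was *Anxa2* (263 ± 28.4 RPKM, SD, n = 3), *Anxa4* (155 ± 31.0), *Anxa13* (90.7 ± 31.1), *Anxa7* (27.9 ± 4.10) and *Anxa11* (19.6 ± 2.88), with no overlap between neighbours. *Anxa5* (2.19 ± 0.721), *Anxa3* (1.58 ± 1.28), *Anxa6* (0.875 ± 0.254) and *Anxa10* (0.860 ± 0.749) followed, and each of these overlapped the next. In DM villi *Anxa2* (311 ± 42.6 RPKM, SD, n = 3) remained first, *Anxa13* (132 ± 13.8) stood above *Anxa4* (88.9 ± 7.72), and *Anxa7* (47.0 ± 9.56) kept the place below them. *Anxa10* (16.3 ± 5.01) had moved from the last place to the fifth, where it overlapped *Anxa11* (15.4 ± 1.13). *Anxa5* (4.24 ± 1.06) and *Anxa3* (3.24 ± 0.470) overlapped each other, and *Anxa6* (0.715 ± 0.0389) was last. The exchange of *Anxa13* and *Anxa4* depends on the length used. In the annotation *Anxa13* had 951 exonic bases by either length, 948 of them coding, so its level rests on a gene model with hardly any untranslated sequence. Per length of the longest transcript, *Anxa4* stayed above *Anxa13* in DM villi at 156 RPKM against 132 RPKM, *Anxa10* stood below *Anxa11*, and in WT villi *Anxa11* stood above *Anxa7*.

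**Figure D3:**
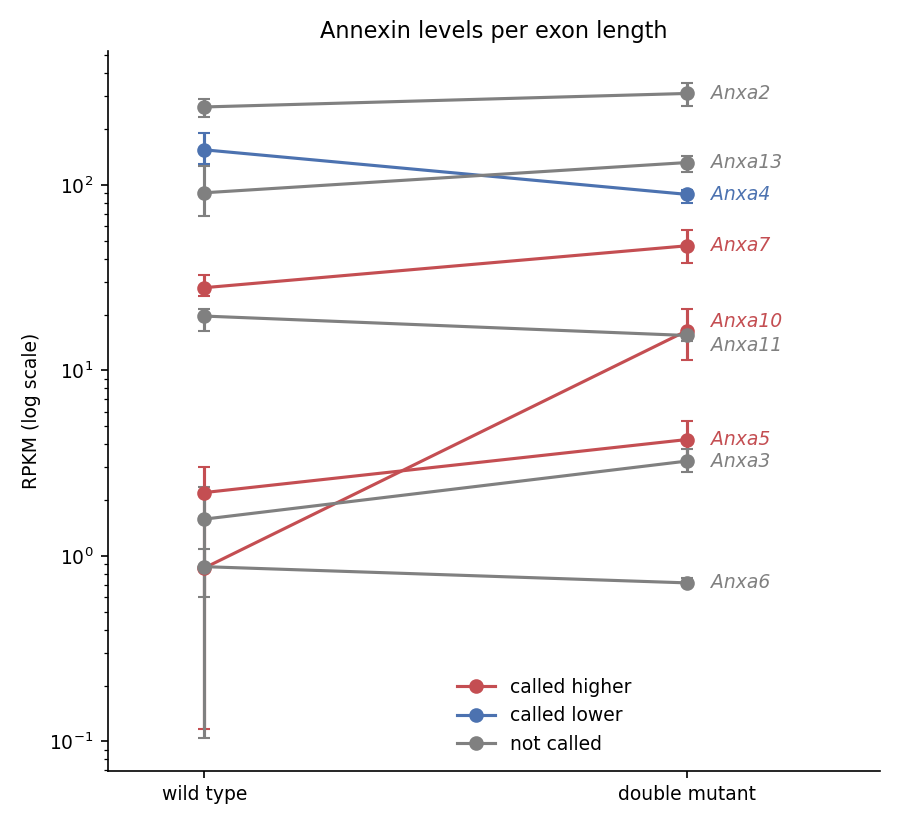
Annexin levels in RPKM of merged exons (log axis) in wild-type and double mutant villi; points are means of 3 mice and bars run from the lowest to the highest mouse, and colour gives the call. *Anxa10* joins *Anxa11* near 16 RPKM in double mutant villi from 0.860 RPKM in wild-type villi.

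The 9 annexins together took 0.205%, 0.167% and 0.177% of all counts in WT mice and 0.193%, 0.226% and 0.204% in DM mice. The groups overlapped, with means of 0.183% ± 0.0200 and 0.208% ± 0.0167 (SD, n = 3). A two-sided exact permutation test gave p = 0.3, where 0.1 is the lowest it can reach. Relative to TMM-scaled libraries the difference changed sign, to -0.0013 percentage points (exact permutation test, two-sided p = 0.9). The make-up of this sum does not depend on the scaling between libraries. *Anxa2* made up 47.9%, 48.6% and 54.0% of annexin counts in WT mice and 55.8%, 61.4% and 61.1% in DM mice. *Anxa4* made up 39.1%, 37.4% and 32.9% in WT and 24%, 20.5% and 19.4% in DM mice. There were thus 1.39 ± 0.223 reads of *Anxa2* to each read of *Anxa4* in WT and 2.82 ± 0.442 in DM mice (SD, n = 3). *Anxa10* rose from at most 0.161% to at least 1.06% of annexin counts, *Anxa7* took 4.37% ± 0.936 and 7.31% ± 1.45, and *Anxa13* took 4.32% ± 0.919 and 6.46% ± 0.709. For 8 of the 9 shares WT and DM mice were fully apart, which gives the smallest p of 0.1 (exact permutation test, two-sided; 0.1125 adjusted over the 9 shares), and the share of *Anxa6* overlapped (exact permutation p = 0.4). The shares add up to a whole, so they do not move independently. *Anxa2*, *Anxa11* and *Anxa13* overlapped between the groups in CPM and came apart as shares of a sum in which *Anxa4* fell by 15.1 percentage points. In CPM, 5 of the 9 were apart, beside 52.4% of all genes.

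**Figure D4:**
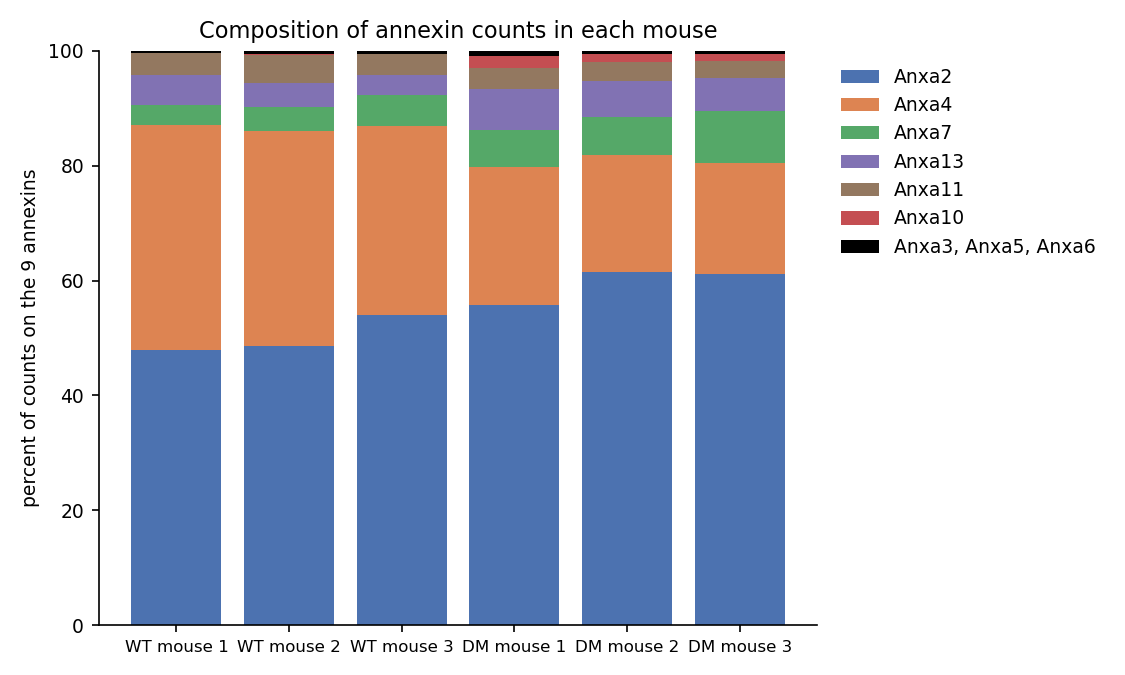
Share of each annexin in the counts on the 9 annexins, in percent, for each wild-type (WT) and double mutant (DM) mouse; each bar adds up to 100. *Anxa4* takes 32.9% to 39.1% in wild-type mice and 19.4% to 24% in double mutant mice.

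The genes with the pattern most like that of the extreme members were looked up by Pearson's r of log2 CPM over the 6 libraries, a description in which all points share the same libraries and the difference between groups. For *Anxa10* they were *Reps1* (r = 0.998), *Zc3h7b* (0.997) and *Polr1b* (0.996), and 642 tested genes had an r above 0.95. For *Anxa4* they were *Cyp2d22* (r = 0.999), *Ocm* (0.998) and *Dak* (0.997), with 288 genes above 0.95. Of these, *Dak* had levels near those of *Anxa4*, with 963, 738 and 678 CPM in WT and 468, 509 and 409 CPM in DM mice.

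S100 proteins are small calcium-binding proteins, several of which dock on annexin tails. Of 16 listed, 8 were tested, and 2 were higher and 0 lower, against 19.7% and 17.0% of all genes. Their median log2 fold change was 0.22. *S100a10*, the partner of *Anxa2*, had 411, 316 and 396 CPM in WT and 312, 402 and 347 CPM in DM mice. The groups overlapped throughout (log2 fold change -0.08, standard error 0.144, adjusted p = 0.679, edgeR). *S100a11*, a partner of *Anxa1*, had 59.9, 38.4 and 56.8 CPM in WT and 70.2, 79.6 and 95.5 CPM in DM mice. It was higher in every DM mouse (log2 fold change 0.66, standard error 0.188, adjusted p = 0.0249, edgeR), a result that held in 3 of the 6 refits with a mouse removed and was lost without WT mouse 2, DM mouse 2 or DM mouse 3 (adjusted p = 0.0595 to 0.0913, edgeR). *S100a16* had 6.62, 6.42 and 10.3 CPM in WT and 18.6, 23.6 and 23.4 CPM in DM mice (log2 fold change 1.49, standard error 0.217, adjusted p = 0.00132, edgeR). For *S100a6*, which binds several annexins, the estimate was 0.23 on the log2 scale (adjusted p = 0.606, edgeR), with WT mouse 1 the lowest of all libraries at 15.2 CPM. Without that mouse the sign turned, to -0.063 (adjusted p = 0.819, edgeR).

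Copines, another family of calcium-dependent phospholipid-binding proteins, had 3 tested genes of 9 listed, of which 1 was lower and 0 higher, a count too small to set apart from the 17.0% and 19.7% of all genes. That gene was *Cpne2*, with 46.3, 41.4 and 38.8 CPM in WT and 10.1, 11.5 and 13.9 CPM in DM mice, with no overlap (log2 fold change -1.83, standard error 0.152, adjusted p = 0.000136, edgeR).

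Of 27 genes of membrane repair and annexin partners, 22 were tested, and 2 were higher and 8 lower, where 19.7% and 17.0% of all genes were, with a median log2 fold change of -0.34 beside 0.0214 over all genes. With library totals as the scaling, the split was 3 higher and 5 lower, where 3732 of all 13346 genes were higher and 1425 lower. *Ahnak*, a giant scaffold held at the membrane by the complex of *Anxa2* and *S100a10*, had 466, 491 and 399 CPM in WT and 161.4, 161.5 and 210.2 CPM in DM mice. Its levels did not overlap (log2 fold change -1.35, standard error 0.145, adjusted p = 0.000370, edgeR). *Ahnak2*, its relative, had 35, 11 and 39 reads in WT and 2, 1 and 7 reads in DM mice (adjusted p = 0.0122, edgeR), a call lost without DM mouse 1 (adjusted p = 0.0532, edgeR). With DM mice 1 and 2 under the floor of 3 counts its size was poorly fixed, and the fitted log2 fold change ran from -4.15 without DM mouse 3 to -2.63 without DM mouse 2. *Lgals3*, a galectin that marks damaged vesicles, fell from 1097, 648 and 739 CPM to 209, 242 and 298 CPM (log2 fold change -1.73, standard error 0.220, adjusted p = 0.000823, edgeR). These falls went along with lower enterocyte markers in the same mice, and the part of enterocyte content in them was not tested.

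The 2 higher genes of that list were scarce. *Trim72*, or MG53, a vesicle-recruiting protein of wounded muscle membranes, had 1.29, 3.54 and 2.02 CPM in WT and 6.06, 7.61 and 4.98 CPM in DM mice (log2 fold change 1.45, standard error 0.374, adjusted p = 0.0163, edgeR). Its call was lost without WT mouse 3 (adjusted p = 0.0544, edgeR) or DM mouse 2 (adjusted p = 0.0642, edgeR). *Cavin1*, a coat protein of caveolae listed as *Ptrf* in the annotation, had 3, 0 and 0 reads in WT and 36, 53 and 63 reads in DM mice (adjusted p = 0.00116, edgeR). Its fitted log2 fold change of 5.49 rests on 3 WT reads, too few to fix the size of the rise. Caveolae abound in stromal and endothelial cells. The summed share of their markers was 0.000205% to 0.000369% in WT and 0.000475% to 0.00113% in DM mice, but none of the 3 markers tested passed the threshold, and their part in the reads of *Cavin1* was not tested.

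**Figure D5:**
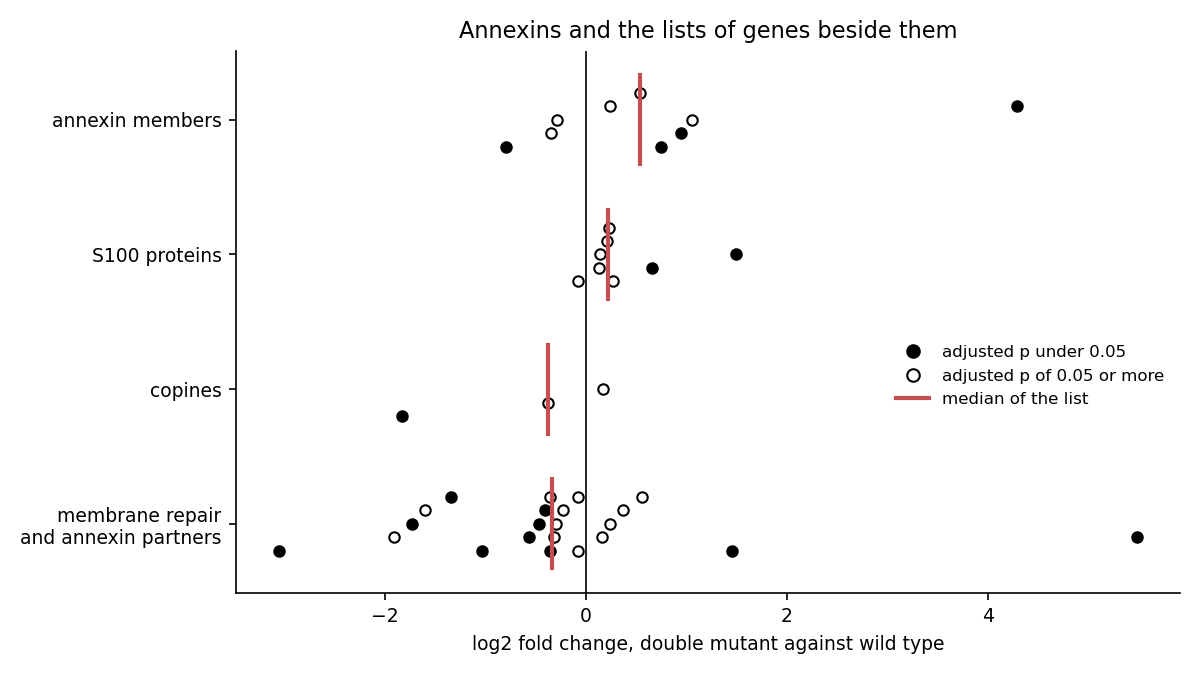
Log2 fold change in double mutant against wild-type villi of each tested annexin, S100 protein, copine and gene of membrane repair or annexin partner; filled points have an adjusted p under 0.05 (edgeR), and red lines are the medians. The point near 5.5 is *Cavin1*, whose fitted value rests on 3 wild-type reads. Of the 10 called genes of membrane repair 8 lie below 0, where 2273 of the 4905 called genes in all do. When scaled by library size alone, 5 of 8 do, beside 1425 of 5157 called genes in all.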

How the data were processed

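Villi were isolated from the duodenum, and RNA of 6 mice was sequenced after poly(A) enrichment as 150 bp paired-end reads. The authors aligned reads to mm9 with HISAT2 and deposited whole-number counts per gene from featureCounts, 1 column per mouse. The strand setting and the treatment of multi-mapping reads are not given in the sources used here. Symbols and exon lengths came from GENCODE vM1 (20032 of 20073 Ensembl identifiers matched), and 336 numbered transcripts outside it took 0.214% to 0.270% of counts.

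Counts were scaled by TMM, filtered with filterByExpr and tested with edgeR 4.0.16 (quasi-likelihood, Benjamini-Hochberg adjustment over 13346 genes) in R 4.3.3, after tests on simulated data. The study's methods name DESeq2, which was run as an alternative (1.42.0), as was limma 3.58.1. CPM, RPKM and exact permutation tests were computed from the counts. Totals limit the precision of scarce genes, and the floor of 3 counts equals 0.114 to 0.152 CPM of the unscaled libraries and covers counting error. The replicates are separate mice.

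The members and gene lists were chosen with earlier results of these data known. Named were all annexins, up to 3 called genes in each direction with the largest change in each list beside them, *S100a10*, *S100a6* and *S100a11*, the 3 genes most like the extreme members, and *Smad4* and *Ctnnb1*. The goblet marker *Clca1* was read under its older symbol *Clca3*. A list of genes of the plasminogen system is not reported here.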

Additional observations from a re-analysis of the deposited data

How the results depend on the processing

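The calls of *Anxa10*, *Anxa7* and *Anxa4* held in all 14 alternatives tried (DESeq2, limma-voom, RLE or library-size scaling, no low-count filter or 1 CPM in 3 libraries, the replicate number as a block, sex as a term, and each of 6 mice left out). Scaling by library size alone moved the median log2 fold change of all genes from 0.0214 to 0.215 and the share of higher calls from 53.7% to 72.4%. Under it *Anxa2* (0.43, adjusted p = 0.0334, edgeR) and *Anxa13* (0.74, adjusted p = 0.0243, edgeR) passed as higher, which made 5 higher members, *S100a10* changed sign to 0.11, and 1425 genes in all and 5 of membrane repair were lower. *Anxa13* also passed with sex as a term (0.59, adjusted p = 0.0318, edgeR), and *Anxa11* with DESeq2 (-0.37, adjusted p = 0.0478), which made 2 lower members. With a log2 fold change of at least 1 or 2 required, 1 member was called, with 1 higher and 0 lower. Over all genes tested, 17.1% passed with at least 1 required and 5.3% with at least 2. The summed share of annexins changed sign to -0.0013 with TMM-scaled libraries.

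With each mouse left out, log2 fold changes ran from 0.76 to 1.24 for *Anxa5*, 0.37 to 0.86 for *Anxa13* and -0.47 to -0.28 for *Anxa11*. The ranges were 0.14 to 0.35 for *Anxa2*, 0.49 to 1.46 for *Anxa3* and -0.50 to -0.094 for *Anxa6*. *S100a10* (-0.19 to 0.0074) and *S100a6* (-0.063 to 0.48) crossed 0. From 3 to 5 members were called (2 to 4 higher, 1 to 2 lower), with 1 to 2 S100 genes higher and 1 to 2 genes of membrane repair higher and 7 to 10 lower. The 10 lower genes came without WT mouse 1. In the same fits 3442 to 5144 genes in all were called (1812 to 2783 higher, 1630 to 2361 lower), out of 13676 to 13769 tested. The cause of these changes was not tested beyond the fewer samples.

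The replicate block left the calls of *Anxa10* (4.45, adjusted p = 0.0401, edgeR), *Anxa4* (-0.78), *Anxa7* (0.74) and *Anxa5* (0.96) and called 3834 genes in place of 4905. Same-numbered mice did not deviate together (r = 0.0224, -0.109 and 0.0123 across genes). With 3 mice per group this cannot decide whether the numbers pair them, and same-numbered mice were of the same sex. Depth limits *Anxa1*, *Anxa8* and *Anxa9*, each under 32 reads a library.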
